A study of Homo sapiens with 8 samples.

Results

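The olfactory receptor (OR) gene clusters described here are 5 windows of the human genome (build hg19) in which OR genes lie side by side. They are chr11:55000001-56600000 (the chromosome 11 proximal cluster), chr11:123600001-124500000 (the chromosome 11 distal cluster), chr1:247600001-248900000, chr14:20200001-20800000 and chr9:107200001-107500000. A peak was counted as a member when its centre lay in one of these windows. The rule used position only and no measured value, but members and lists were chosen with earlier results of these data known. It found 68 of the 77028 peaks in both lists used, namely 45 of 47470 peaks of control cells and 23 of 29558 peaks of CBL0137-treated cells. These peaks cover 47 distinct sites.

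The cells were HT1080, an established human fibrosarcoma line from connective tissue that the labels record as ras +. CTCF was immunoprecipitated from crosslinked chromatin with a polyclonal anti-CTCF antibody (ChIP-seq) in untreated control cells and in cells kept for 6 h in medium with 3 µM CBL0137. Each condition had 2 biological replicates of ChIP and 2 of input DNA, 8 libraries in all. Each deposited peak list joins the 2 replicates of its condition, so no replicate error exists for any value below and no test between conditions was possible. The 95% intervals given cover counting error only, and the number of reads behind a peak is not known from the lists.

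OR genes encode the odorant receptors of the olfactory epithelium. They form the largest mammalian gene family, lie in clusters made by tandem duplication, include many pseudogenes, and are mostly silent outside sensory neurons, within AT-rich, late-replicating chromatin. CTCF is a zinc-finger protein that binds a long, oriented DNA motif, and together with cohesin it sets the ends of chromatin loops and domains. CBL0137 is a curaxin, a small molecule that inserts into DNA, and the ChIP-seq experiment asked which CTCF sites were still bound after exposure to it.

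The windows held 239 annotated OR genes, of which 142 were protein-coding and 97 were pseudogenes or other types. The proximal cluster on chromosome 11 had 98 of them, from OR4A11P to OR5G3, and 49 were of family OR5. The distal cluster on chromosome 11 had 44, from OR6X1 to OR8Q1P, with 26 of family OR8. The chromosome 1 cluster had 57, from OR2B11 to OR14I1, with 44 of family OR2. The chromosome 14 cluster had 28, from OR11K2P to OR11H4, with 20 of family OR4, and the chromosome 9 cluster had 12 genes, OR13F1 to OR13D3P, every one of family OR13.

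The sequences below show the motif match of selected CTCF peaks in the clusters, because the results on the motif and on OR coding sequence refer back to them. Each is 30 bases of the hg19 reference read along the strand of its match. The capitals mark the 12 bases that match the core CTCF consensus with at most 1 mismatch. Only 25 of the 45 control peaks had such a match, and no site of the distal chromosome 11 cluster is printed. The first 4 come from peaks present in both lists and the next 4 from peaks found only in control cells. The last comes from a peak found only after CBL0137, and was added after the values were seen.
OR4N5 (chr14:20612258-20612287, minus strand): gtgtaaaggCCGGCAGATGGCgatgtagcg
CLK3P2 (chr1:248100325-248100354, plus strand): ccgacccggCCACCAGGTGGCgcctgttta
OR5D3P (chr11:55494369-55494398, plus strand): agatgccttCCACTGGGGGGCgcaagaaag
OR5G4P side (chr11:56551106-56551135, minus strand): taagcattgCCACTAGATGGCagcatcaac
OR2C3 (chr1:247695418-247695447, plus strand): atggagtggCCTGCAGATGGCagcgtagcg
OR2W5P side (chr1:247650580-247650609, minus strand): caaacagaaACACTAGATGGCaacatcagc
OR13D1 side (chr9:107445011-107445040, minus strand): attctaaggCCACTAGATGGTggcatagac
OR13F1 side (chr9:107257293-107257322, minus strand): cccctattgCCACTAGATGGTgaaaaagac
OR5D2P (chr11:55482938-55482967, plus strand): agacgccttCCACTGGGGGGCgcaagaaag

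In control cells, the clusters carried fewer CTCF peaks per Mb than the DNA beside them. The 45 control peaks lay in 4.70 Mb of known sequence, which gave 9.57 peaks per Mb (95% exact Poisson interval 6.98 to 12.8). The 1 Mb on each side of the windows held 173 control peaks in 8.50 Mb, or 20.4 per Mb (17.4 to 23.6), and chromosomes 1 to 22 and X together had 16.7 per Mb. The ratio of cluster density to flank density was 0.470 (exact interval 0.331 to 0.656). After CBL0137 the clusters held 23 peaks, 4.89 per Mb (3.10 to 7.34), against 14.9 per Mb (12.5 to 17.8) in the flanks and 10.4 per Mb over the chromosomes. The ratio in the treated list was 0.327 (0.200 to 0.513), and its interval overlapped that of the control list.

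By cluster, the ratios had wide intervals that all overlapped one another. The ratio in control cells was 0.299 (0.135 to 0.614) for the proximal cluster on chromosome 11, 0.333 (0.145 to 0.676) for the distal one and 0.476 (0.224 to 0.967) for chromosome 1. On chromosome 14 it was 0.721 (0.290 to 1.57) and on chromosome 9 it was 1.27 (0.317 to 3.76), and these intervals included 1. The chromosome 9 cluster, with 4 control peaks, had a left flank with only 3 peaks in its 1 Mb. The left flanks of the proximal chromosome 11 and chromosome 14 clusters held no peak in either list. In the former only 0.306 Mb was known sequence, and in the latter only 24.7% of 75 bp positions occurred once in the reference. The flank to the right of the chromosome 1 cluster was cut short by the chromosome end, with 0.191 Mb of known sequence.

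**Figure D1:**
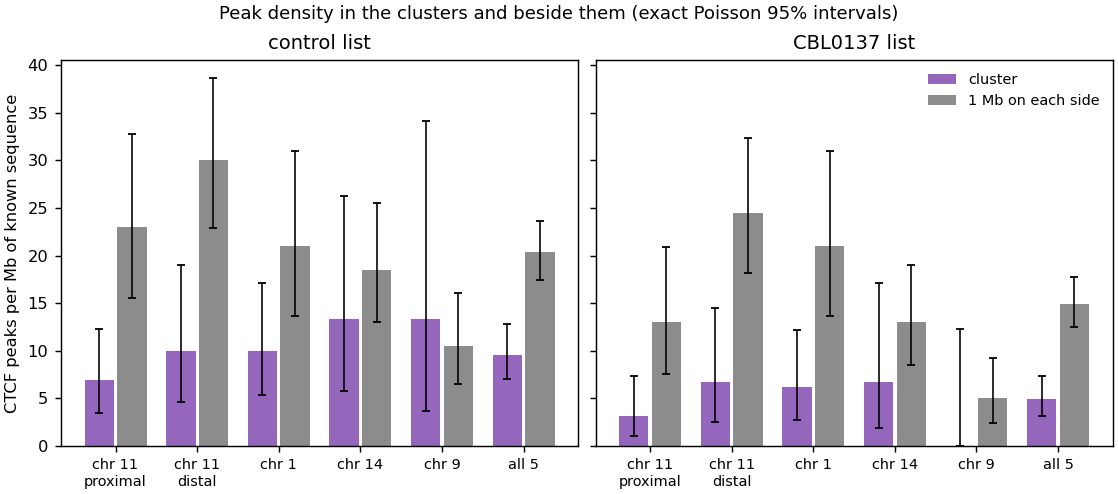
CTCF peaks per Mb of known reference sequence (y axis) in each OR cluster (purple) and in the 1 Mb on each side of it (grey), for the control list (left) and the CBL0137 list (right), with exact Poisson 95% intervals as error bars. The control bars of the proximal and distal chromosome 11, the chromosome 1 and the chromosome 14 clusters lie below their flanks. The chromosome 9 control bar lies above its flanks, and the chromosome 9 cluster has no bar in the CBL0137 list.

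Sequence properties differed between clusters and flanks together with the density. GC content was 37.2% in the windows, 42.3% in the flanks and 40.9% over the chromosomes. Matches to the core consensus with at most 1 mismatch numbered 35.5 per Mb in the windows, 60.8 per Mb in the flanks and 55.0 per Mb over the chromosomes. Of the 167 matches in the windows, 29 lay in a control peak (17.4%, Wilson interval 12.4 to 23.8%), against 108 of 517 in the flanks (20.9%, 17.6 to 24.6%). For matches with no mismatch the counts were 8 of 10 in the windows and 33 of 46 in the flanks. The clusters thus held both fewer peaks and fewer consensus matches per Mb, and the intervals of the share of matches under a peak overlapped. The 517 flank matches include 64 in the left flank of the chromosome 14 cluster and 3 in that of the proximal chromosome 11 cluster. Neither of these flanks held a peak, so they lower the flank share. The share of 75 bp positions that occur once in the reference was 93.4% in the windows, 88.0% in the flanks and 95.8% over the chromosomes. The flank share includes the left flank of the chromosome 14 cluster, with 24.7%. The chromosome 1 cluster had 87.1%, against 95.5% in its flanks, and the distal chromosome 11 cluster 97.6%, against 98.6%. The other clusters had higher shares than their flanks, on chromosome 9 98.0% against 97.5%. For the proximal chromosome 11 and the chromosome 14 cluster this rested on left flanks without a peak, with 71.2% and 24.7%. Against their right flanks these clusters had lower shares, 95.2% against 98.3% and 93.3% against 97.1%. Each of the 45 control peaks lay wholly on positions that occur once. Reads with a second alignment were removed before peaks were called, so peaks could hardly lie elsewhere. The part of GC content and consensus density in the peak density was not tested.

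Of the 45 control peaks in the clusters, 21 overlapped a CBL0137 peak by any length (shared) and 24 did not (lost). The lost share was 53.3% (Wilson interval 39.1 to 67.1%), against 42.9% over the whole control list. In the flanks 55 of 173 control peaks were lost, 31.8% (25.3 to 39.1%). The interval of the clusters thus included the whole-list share, and its lower end lay at the upper end of the interval of the flanks. By cluster, 7 of 11 control peaks were lost in the proximal and 3 of 9 in the distal cluster of chromosome 11, 6 of 13 on chromosome 1, 4 of 8 on chromosome 14 and 4 of 4 on chromosome 9. The intervals of the 5 clusters overlapped one another. Without the chromosome 9 cluster the lost share was 48.8% (34.3 to 63.5%).

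**Figure D2:**
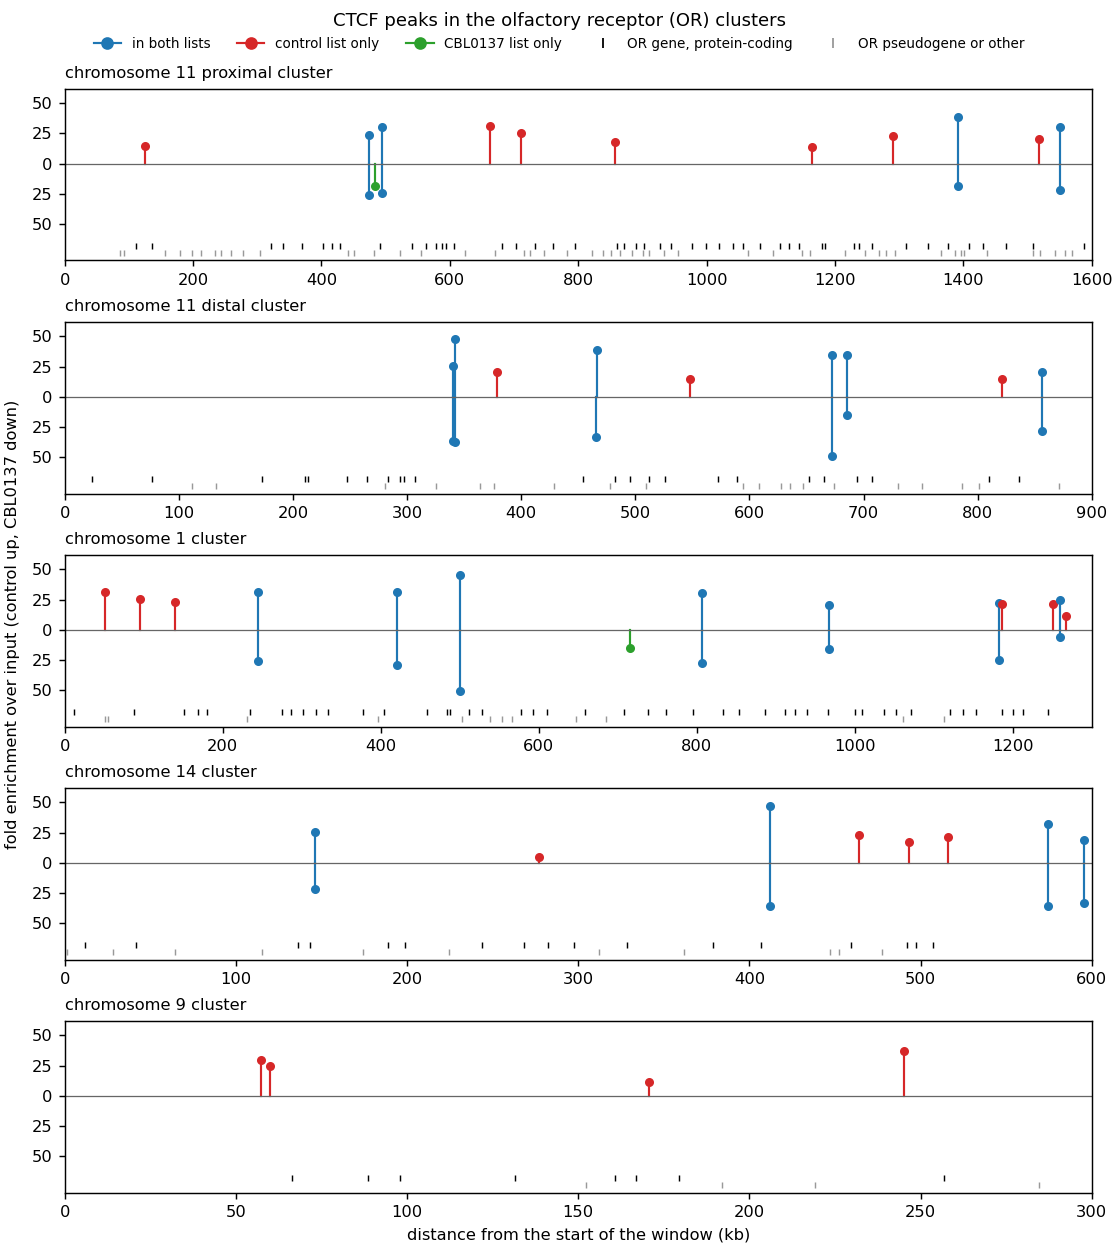
Map of the 5 clusters, with distance from the start of each window in kb on the x axis and fold enrichment over input on the y axis (control peaks upward, CBL0137 peaks downward), blue for sites in both lists, red for the control list only and green for the CBL0137 list only, and OR genes as ticks below. Red stems fill the middle of the chromosome 11 proximal cluster and the whole chromosome 9 cluster, which has no downward stem.

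On chromosome 9 no CTCF peak was found after CBL0137 in the whole 300.0 kb window with its 12 OR13 genes. The strongest of its control peaks, at chr9:107444901-107445150 (fold enrichment 36.8), lay 11.8 kb from OR13D1. The peaks at chr9:107257151-107257450 (30.1) and chr9:107259951-107260200 (24.5) stood beside OR13F1 at the start of the gene array. A weaker peak at chr9:107370701-107370900 (11.8) lay 2.89 kb from the start of OR13C2. These lost sites covered the range from the lowest to the third quartile of fold enrichment in the whole control list. Its flanks lost 11 of 21 control peaks, a share of 52.4% (32.4 to 71.7%).

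In the proximal cluster on chromosome 11, a stretch of 898 kb between the peak in OR5D3P and the peak beside OR5AM1P had no CBL0137 peak. It held 62 OR genes, 34 of them protein-coding, and 5 control peaks, all lost. In control cells the longest stretch of this cluster without a peak was 349 kb, with 18 OR genes. The 4 shared sites of the cluster stood at both sides of the stretch. The strongest was chr11:56392101-56392350, with a fold enrichment of 38.5 in control and 18.8 in treated cells, 3.94 kb from OR5AM1P. The peak in OR5D3P had values of 30.7 and 24.2, and the peak at chr11:56551001-56551250 beside OR5G4P had 30.1 and 22.1. Fold enrichment is relative to the input of its own condition, so the lists were compared by rank and not by these values. The control peak nearest the start of the window, at chr11:55125201-55125350 (14.3) near OR4A15, was lost. So was the second strongest, at chr11:55662851-55662950 (30.9), 7.92 kb from OR5W1P.

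The distal cluster on chromosome 11 had the strongest control peak of all clusters. It lay at chr11:123942101-123942450, with a fold enrichment of 48.1, and 2.10 kb from a second peak at chr11:123940051-123940300 (25.3). Both sites were shared. No control peak lay between the start of the window and this pair, over 340.2 kb with 15 OR genes, of which 11 were protein-coding. Shared peaks also stood at chr11:124065851-124066200 (38.5) near OR10D3, at chr11:124285301-124285600 (34.7) near OR8B4, at chr11:124272251-124272600 (34.6) near OR8X1P, and at chr11:124456201-124456500 (20.5) near OR8A1, the last one before the window ends. The 3 lost peaks of this cluster, chosen for mention after their values were seen, had fold enrichments of 14.4 to 20.8.

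On chromosome 1 the strongest peak of both lists lay on CLK3P2, a processed pseudogene of a kinase gene and no receptor, at chr1:248100101-248100700. It was 600.0 bp wide in both lists and had a fold enrichment of 45.5 in control and 50.9 in treated cells. A second non-OR site, at chr1:248020751-248021100 (31.5), lay 436 bp from the start of TRIM58, a gene of the tripartite motif family, in sequence of 76.6% GC, and was shared. Of the peaks near receptors, chr1:247844601-247845000 (31.5), 1.76 kb from the start of OR13G1, and chr1:248406401-248406850 (30.4), in an exon of OR2M4, were shared. The peak nearest the start of the window, chr1:247650451-247650700 (31.5) beside OR2W5P, was lost, as was the one nearest its end, chr1:248867051-248867350 (11.1).

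On chromosome 14 the peak at chr14:20612201-20612350, in an exon of OR4N5, had a fold enrichment of 47.0 in control and 35.7 in treated cells and the same 150.0 bp width in both. The peak in an exon of OR4K2 (chr14:20346201-20346550, 25.5) was also shared. The other shared sites lay at the end of the window past the last OR gene. One was 31 bp from the start of TTC5, a gene for a tetratricopeptide repeat protein (chr14:20773951-20774350, 31.8), with an FDR of 5.93e-20, the smallest of the cluster peaks. The other lay in CCNB1IP1, which encodes a ubiquitin ligase (chr14:20795451-20795850, 18.5). Between OR4K2 and OR4N5 the treated list had no peak over 266 kb with 12 OR genes.

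Control peaks of the clusters had a lower median fold enrichment and width than those of the flanks. Their fold enrichment had a median of 24.5 (range 4.99 to 48.1), against 31 in the flanks and 28.7 in the whole list, and their median width was 250.0 bp, against 300.0 bp in both. Lost peaks of the clusters had a median of 21.4 and shared peaks one of 30.7, and the corresponding medians of the whole list were 20.6 and 34.9. By quartile of fold enrichment of the whole control list, from weakest to strongest, 9 of 10, 11 of 18, 4 of 14 and 0 of 3 cluster peaks were lost. The whole-list shares for these quartiles were 80.2, 51.1, 28.4 and 11.8%. Had the cluster peaks been lost at the rate of their quartile in the whole list, 47.9% would have been lost, against the 53.3% observed. For the flanks the same calculation gave 39.3%, against 31.8% observed.

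**Figure D3:**
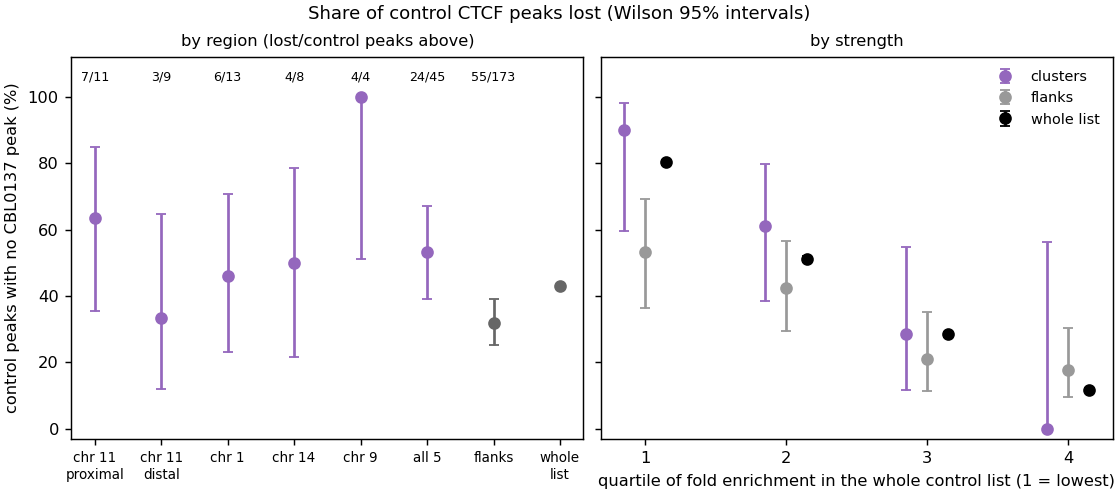
Percent of control CTCF peaks with no overlapping CBL0137 peak (y axis), by region (left) and by quartile of control fold enrichment (right), with Wilson 95% intervals as error bars. The chromosome 9 cluster lost 4 of 4 peaks, and the cluster shares fall from 9 of 10 in the weakest quartile to 0 of 3 in the strongest, as the whole-list shares do.

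Regional base composition moved with the lost share as well. By GC content in the 100 kb around each peak, 34 of the 45 control peaks of the clusters fell in the lowest quartile of the whole list and 11 in the second, and none in the upper ones. The flanks had 102 and 32 of their 173 peaks in the upper quartiles. In the lowest quartile 18 of 34 cluster peaks were lost (52.9%, 36.7 to 68.5%), against 57.4% of all control peaks in that quartile. In the second, 6 of 11 were lost (54.5%, 28.0 to 78.7%), against 47.5%. At the whole-list rates for their GC quartiles 55.0% of cluster peaks would have been lost, against the 53.3% observed. The whole-list shares of both quartiles lay within the intervals of the cluster shares. For the flanks the calculation at whole-list rates for GC quartiles gave 39.5%, against 31.8% observed.

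Each of the 21 shared peaks was ranked by fold enrichment as a percentile within its own list. The lists differ in length, and lost peaks were mostly weak ones, so a percentile can shift without a change at its site, and the ranks are given as a description. The percentile was higher in the CBL0137 list for 8 peaks (38.1%) and lower for 13, with a median difference of -7.59 percentile points. Over all 27107 shared peaks of the lists 35.2% were higher and the median difference was -9.21, so the cluster peaks lay near the list-wide shift. The strongest CLK3P2 site stood at the 86.6 percentile in control and at 89.3 in treated cells. The peak near OR8X1P had percentiles of 66.0 and 87.3, and the one near OR8B4, 13.0 kb away, had 66.2 and 17.5. The peak at chr1:248859601-248859850 in the pseudogene LYPD9P, named after the values were seen, went from 38.3 to 0.161. Of the shared peaks, 14 became narrower, 6 kept their width and 1 became wider, and the last was the peak in OR5D3P. The narrowed share was 66.7%, against 62.4% of all shared peaks, and the widened share 4.76%, against 15%. Their median width was 350.0 bp in control and 250.0 bp in treated cells, against 350.0 and 300.0 bp over all shared peaks.

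**Figure D4:**
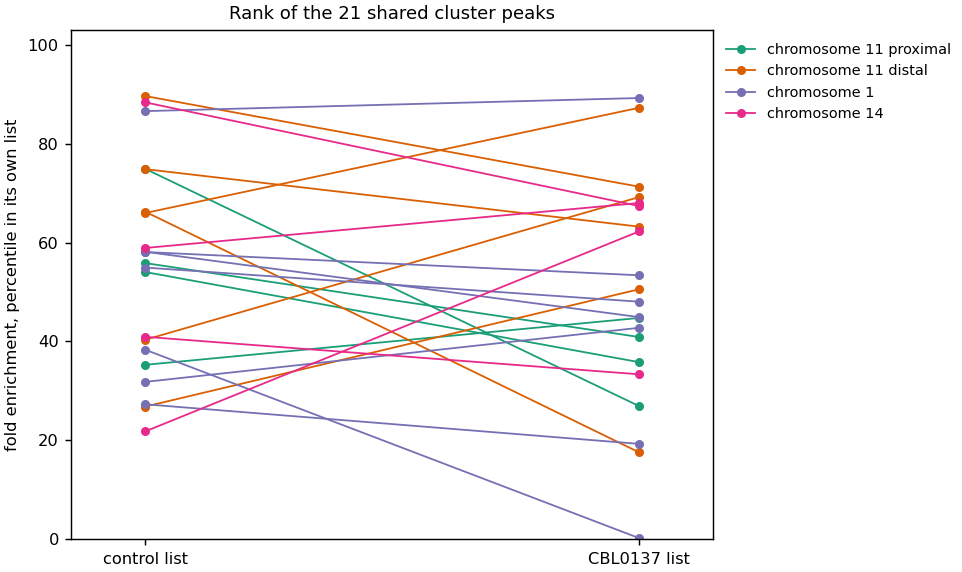
Percentile of fold enrichment within its own list (y axis) for each of the 21 shared cluster peaks in the control list and in the CBL0137 list, joined by a line and coloured by cluster. The lines cross, with 8 rising and 13 falling, and the OR8B4 site goes from 66.2 to 17.5.

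Only 2 of the 23 CBL0137 peaks in the clusters had no control counterpart (8.70%, Wilson interval 2.42 to 26.8%), against 8.07% of the whole CBL0137 list. One lay in the pseudogene OR5D2P at chr11:55482851-55483000, with a fold enrichment of 18.6 and an FDR of 2.73e-04. It stood at the 26.5 percentile of fold enrichment in its list.

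OR gene starts lay about as far from CTCF peaks as other positions of the windows. The median distance from an OR gene start to the nearest control peak was 35.2 kb, and it was 69.3 kb to the nearest CBL0137 peak. Over all window positions, taken every 100 bp, the medians were 33.7 and 67.2 kb. A control peak lay within 5 kb of the start of 21 of 239 OR genes (8.79%) and within 1 kb of 1, the entry of OR2W5P annotated as a long noncoding RNA. OR2W5P is counted under both of its annotated entries. A CBL0137 peak lay within 5 kb of 10 OR gene starts. Of all window positions 9.10% lay within 5 kb of a control peak, so the count of gene starts within 5 kb was near this background. Within 1 kb lay 1.94% of positions, a larger share than the 1 of 239 gene starts. The closest protein-coding starts were those of OR2T1 (1.18 kb), OR11H6 (1.61 kb), OR9G4 (1.73 kb) and OR13G1 (1.76 kb). The distance grew most in the proximal cluster on chromosome 11, from a median of 39.1 kb to one of 202 kb, and on chromosome 9, from 19.9 to 141 kb. On chromosome 1 it was 38 and 42.6 kb and in the distal chromosome 11 cluster 36.5 and 43.6 kb. On chromosome 14 it was 29.3 and 71.7 kb.

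**Figure D5:**
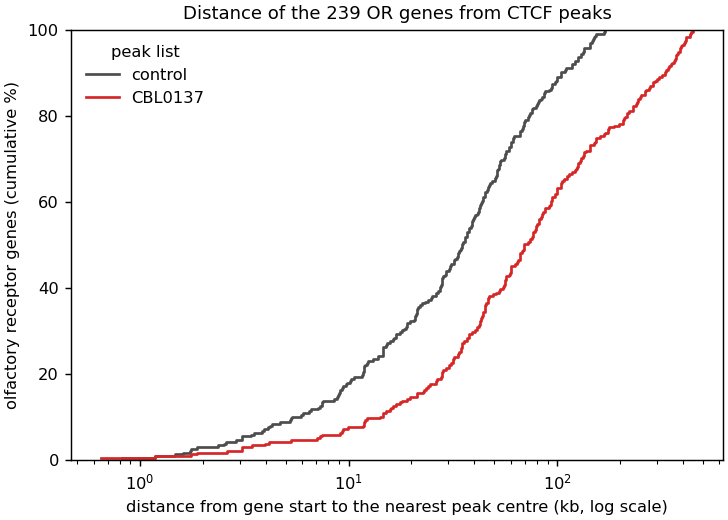
Cumulative percent of the 239 OR genes (y axis) by distance from the gene start to the nearest CTCF peak centre in kb (x axis, log scale), for the control list (dark grey) and the CBL0137 list (red). The medians are 35.2 and 69.3 kb, and the CBL0137 curve lies to the right over most of its length.

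A total of 7 of the 45 control peaks had their centre inside an OR gene, and OR genes covered 17.2% of the windows. Those in OR5D3P, OR2M4, OR2T1, OR4K2 and OR4N5 were shared, and those in OR2C3 and OR11G2 were lost. GENCODE lists OR5D3P as protein-coding although its symbol is that of a pseudogene.

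The core consensus, searched on both strands in 400 bp around the peak centre, was found with at most 1 mismatch in 25 of the 45 control peaks (55.6%, 41.2 to 69.1%), against 49.0% of control peaks on chromosomes 1 to 22 and X. In windows placed 10 kb away it was found beside 1 of the 45 peaks. It was present in 14 of 21 shared peaks (66.7%, 45.4 to 82.8%) and in 11 of 24 lost peaks (45.8%, 27.9 to 64.9%), and the whole-list shares were 62.2 and 31.5%. The 2 intervals of the clusters overlapped. Of the 25 matches 12 were on the plus and 13 on the minus strand, and 8 had no mismatch.

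Several of the printed sequences have a form of the consensus that was noticed after they were read out. Of the 25 matches in cluster peaks, 12 had AGATG as bases 6 to 10 of the match (48.0%), as in OR4N5, OR2C3 and the lost OR13 peaks above. All 4 printed sequences of lost peaks have it, against 7 of the 11 lost cluster peaks with a match. In the flanks 15 of 98 matches in control peaks had it (15.3%), and in the whole list 4046 of 23253 did (17.4%). In the lowest quartile of regional GC the whole-list share was 1485 of 5722 (26.0%) and in the second 20.0%, and all cluster peaks lie in these quartiles. Among all consensus matches in the windows, bound or not, the share was 35 of 167 (21%), and in the flanks 76 of 517 (14.7%). Control peaks with this form were lost more often in the whole list, 45.0% (43.5 to 46.5%) of 4046, than peaks with another match, 23.9% (23.3 to 24.5%) of 19207. In the lowest quartile of regional GC, where most cluster peaks lie, the shares were 53.2% of 1485 and 37% of 4237. In the clusters 7 of the 12 peaks with this form were lost and 4 of the 13 with another match (58.3%, 32 to 80.7%, and 30.8%, 12.7 to 57.6%), a difference within counting error. The median fold enrichment of peaks with this form was 29.8 in the whole list, and that of other matches 32.9. In the clusters the order was the other way, with 30.1 for the 12 peaks and 24.5 for the 13.

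Some matches lay on sequence that codes for the receptors, or on the like sequence of receptor pseudogenes. Of 50 consensus matches inside OR genes of the windows, 10 overlapped the codons of a conserved stretch of OR proteins, which was searched as arginine or histidine, tyrosine, any residue, alanine, isoleucine, and cysteine or serine. This stretch follows the third membrane-spanning helix, and the search was set up after matches there were noticed. Each match was credited to 1 gene and read on the strand of that gene only. Where OR genes overlap, a match on the stretch of the other gene could be missed. Some of the 10 were credited to an OR gene of chromosome 14 that is not among those counted above. In 7 of the 10 the match ran on the strand opposite to the gene it was credited to, as in OR4N5 and OR2C3 above. A control peak covered 2 of the 10, those in OR4N5 (shared) and OR2C3 (lost), and 3 of the other 40 matches in OR genes. Among the 142 protein-coding OR genes 97 had the stretch, at least 5 of them had a consensus match over it, and 2 had a control peak over it. Most matches on this stretch thus had no peak, as was the case for all matches in the windows, of which 29 of 167 (17.4%) lay in a control peak.

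The peaks in OR5D3P and OR5D2P lay on paralogous genes 11.4 kb apart, on nearly the same motif. The 30 printed bases differ at 1 position. Over 212 bases around the matches, compared position by position without gaps, 73.6% were identical. The OR5D3P site had a peak in both lists, and the OR5D2P site only in the CBL0137 list. The control peak in OR5D3P was 100 bp wide with an FDR of 8.27e-04. It overlapped 50% of the longer CBL0137 peak, so a rule of more than 50% would count it as lost. The CBL0137 peaks in OR5D3P and OR5D2P had FDRs of 2.39e-04 and 2.73e-04. Both peaks lay wholly on 75 bp positions that occur once in the reference, which the removal of reads with a second alignment made likely in advance.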

How the data were processed

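CTCF ChIP and input libraries of control and CBL0137-treated HT1080 cells (2 biological replicates each) were grouped by their titles. Per the study's methods, 75 bp reads were mapped to hg19 with Bowtie2 2.2.3, reads with a second alignment and duplicates were removed (SAMtools 1.5), and PePr called peaks jointly over the replicates of a condition, against input. Removal of reads with a second alignment can lower signal in duplicated receptor genes. The deposited lists give for each peak a fold enrichment (a ratio of ChIP to input, computed by the authors) and an FDR, the authors' adjusted p-value over the list, and both were used as deposited. Library depth was not analysed here. The other 2 of the 4 deposited lists hold the authors' own comparison of the conditions and were not used.

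Members were peaks with their centre in the 5 windows. Members and lists were chosen with earlier results of these data known. Fate was set by any overlap. Densities used known bases of GRCh37 (the hg19 sequence), genes came from GENCODE v44 lifted to this build, and OR genes were taken by symbol, pseudogenes included. Sequence was scanned for a 12-base core CTCF consensus, for GC content and for 75 bp positions that occur once (every 5 bp in the clusters and flanks, every 1000 bp elsewhere). Peaks named are, in each cluster, the 3 strongest control peaks, up to 4 shared ones, those nearest each window edge and CBL0137 peaks without a control counterpart, 1 of which is not reported here. Genes named hold or neighbour these, begin or end a window, or have a control peak within 5 kb of their start. Printed sequences are a selection, made after the values were seen, from the strongest shared and lost peaks with a match in each cluster. Intervals are Wilson (shares), exact Poisson (densities) and exact conditional (ratios). The scripts (scipy 1.17.1 and pysam 0.24.0 under Python 3.11.15) were tested on simulated peaks. Alternatives changed thresholds, windows, flanks, denominators, overlap rules and consensus settings.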

Additional observations from a re-analysis of the deposited data

How the results depend on the processing

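No paired analysis was possible because each deposited list pools the replicates of its condition, so fits without replicate 1, without replicate 2 or with a replicate block were not run. The ratio of control density in clusters to flanks ranged from 0.398 to 0.552 over its alternatives and that of CBL0137 density from 0.277 to 0.390, below 1 in each. The lost share in the clusters ranged from 48.8 to 60.0%, and it was above that of the flanks in all 10 settings run for both. These settings reuse the same peaks, and in several the intervals of clusters and flanks overlapped. Requiring over 50% of the longer peak to be shared gave the 60.0%, against 50.7% of the whole control list. The lost share in the flanks rose to 39.7% with an FDR of at most 1e-05 in both lists and to 41.6% when peaks had to share over 50% of the longer one. Under that overlap rule 5 of the 23 CBL0137 peaks of the clusters had no control counterpart. By any overlap, 0 of the 16 with an FDR of at most 1e-05 lacked one. The shares of the whole CBL0137 list under these settings were not computed. Without the chromosome 1 cluster 15 CBL0137 peaks were left, since the window held the others. With no mismatch 17.8% of the control peaks had a consensus match (0 of 45 windows 10 kb away), and with up to 2 mismatches 84.4% (7 of 45). Using only flank sides where at least 80% of 75 bp positions occur once, chosen after seeing the data, gave density ratios of 0.398 and 0.277. With 45 control peaks, differences between single clusters were within counting error.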

Other observations

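The control peaks nearest the 10 window edges lay 4.35 to 340.2 kb inside, with fold enrichments of 11.1 to 36.8, and 5 of them were lost. The 9 nearest peaks outside on the same chromosome had fold enrichments of 12.5 to 38.1, and 4 were lost. Upstream of the chromosome 14 cluster no control peak was found to the start of the chromosome. Upstream of the proximal chromosome 11 cluster the nearest control peak lay 3440 kb away, beyond the centromere.

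In the flanks, 7 OR genes lay to the right of the proximal cluster on chromosome 11, from OR5AK3P to OR5BP1P, and 5 beside the chromosome 14 cluster, so the flanks are not free of receptors. In the right flank of the chromosome 14 cluster, with 32 other protein-coding genes among its 34, 37 control peaks stood in 1 Mb, against 8 peaks in the 0.6 Mb of the cluster.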
